A study of Mus musculus with 8 samples.

Results

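The chemokine ligands of the mouse were followed through 8 tumor transcriptomes: 37 genes of the CC, CXC, C and CX3C families, out of 25006 gene identifiers in the count tables. Members were found by matching the Ensembl identifiers of the tables to mouse symbols, and none of the 37 was absent. Ccl19 and Ccl21a had 3 counts or fewer in every library, and Ccl27a and Ccl28 were removed by the filter on low counts with at most 7 counts in any library. The other 33 ligands were tested. A ligand that is high in 1 group only can pass such a filter because of that group, so counts over the 33 describe the ligands tested.

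The tumors grew from 4T1, a mammary carcinoma line of Balb/c origin that stands in for triple-negative human tumors, injected into the fat pad of mice and taken after at most 20 days. Hosts were Balb/c mice, which are immunocompetent and syngeneic with 4T1, or NSG mice, which lack mature T, B and NK cells. NSG mice are also of another strain background, so that immune competence and strain cannot be told apart. In each host the CD95 wild-type group was made of 1 tumor library of the parental line and 1 of a line named vCas9, and the CD95 knockout group of 1 library each of the CRISPR/Cas9 clones 54 and 69. CD95, the product of Fas, is a death receptor, and the series asks how its loss from the tumor cells relates to expression in the tumor in either host. The knockout removes CD95 from the injected line and not from the host's own cells. Replicates of a group are different lines, the knockouts are clones, the labels do not call the other lines clones, and clonality and CD95 status cannot be told apart. Whether a library held 1 tumor or a pool is not given, so p-values measure the spread between these samples only. Values of a group are given below in the order parental then vCas9, or clone 54 then clone 69.

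Chemokines are small secreted proteins, a few of them made as transmembrane proteins, that attract leukocytes through G protein-coupled receptors. A receptor is typical of certain cell types: CXCR2 of neutrophils, CCR2 of monocytes, CCR3 of eosinophils, and CXCR3 of activated T cells and NK cells. In tumors, ligands come from the cancer cells, fibroblasts and the infiltrating leukocytes themselves, and bulk RNA does not separate these sources. A lower value in bulk RNA can come from fewer cells of a type or from less RNA per cell, and these cannot be told apart.

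Many of the ligand genes lie side by side. In GRCm38 coordinates, chr5:90759360-90905938 holds Cxcl5, Ppbp, Pf4, Cxcl3, Cxcl15, Cxcl1 and Cxcl2, chr5:92321347-92365485 holds Cxcl9, Cxcl10 and Cxcl11, and chr8:94745590-94812036 holds Ccl22, Cx3cl1 and Ccl17. On chromosome 11, chr11:82035571-82305690 holds Ccl2, Ccl7, Ccl11, Ccl12, Ccl8 and Ccl1, and chr11:83525778-83664683 holds Ccl5, Ccl9, Ccl6, Ccl3 and Ccl4. Promoters of neighbours are shown for the CXCR2 ligands Cxcl1, Cxcl2 and Cxcl3, whose values were lower in Balb/c knockout than in Balb/c wild-type tumors, and for Cxcl10, a ligand of another neighbourhood that did not share that direction. Sequences are those of RefSeq for GRCm38.p6. Promoter sequences were at hand for 27 of the 37 members, and those of the other members were not searched. Capitals mark an NF-kB motif (GGGA and TTCC with any 2 bases between them) and, in Cxcl10, also the interferon-stimulated response element motif (ISRE, GAAA and GAAA with any 2 bases between them), both searched on both strands. In Cxcl1, Cxcl2 and Cxcl3 the capitals join an overlapping NF-kB match on each strand. The windows are chr5:90891125-90891244 (plus strand) for Cxcl1, chr5:90903779-90903898 (plus strand) for Cxcl2, chr5:90785981-90786100 (plus strand) for Cxcl3 and chr5:92348890-92349119 (minus strand) for Cxcl10, each ending next to the RefSeq start of its gene.
Cxcl1: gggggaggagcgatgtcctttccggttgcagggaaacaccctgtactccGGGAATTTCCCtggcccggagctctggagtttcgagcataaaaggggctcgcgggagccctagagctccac
Cxcl2: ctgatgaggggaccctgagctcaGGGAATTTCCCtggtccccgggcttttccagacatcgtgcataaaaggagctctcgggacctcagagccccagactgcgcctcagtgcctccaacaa
Cxcl3: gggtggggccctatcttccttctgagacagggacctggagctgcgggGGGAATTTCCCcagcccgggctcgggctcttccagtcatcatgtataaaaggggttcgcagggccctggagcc
Cxcl10: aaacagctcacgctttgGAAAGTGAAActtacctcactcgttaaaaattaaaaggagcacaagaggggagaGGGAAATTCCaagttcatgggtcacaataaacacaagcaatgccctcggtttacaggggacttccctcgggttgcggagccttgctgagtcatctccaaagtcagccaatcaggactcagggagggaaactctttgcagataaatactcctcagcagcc
The NF-kB letters were found in the 250 bases before the start of 5 of the 27 ligands (Ccl1, Cxcl1, Cxcl2, Cxcl3 and Cxcl10) and of 1.21% of 32851 promoter windows of that length. ISRE letters were found in Ccl19, Cxcl10 and Cxcl14, against 2.98% of all windows. The gamma-activated site motif (GAS, TTC and GAA with any 3 bases between them) was found in Ccl17 and Cxcl14, against 7.02% of all windows. A match is a description of the letters and not a measured binding site.

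Library totals ranged from 8680070 counts (NSG clone 69) to 19655945 (Balb/c clone 54), and 3 counts corresponded to 0.159 to 0.321 CPM (counts per mega-count of the TMM-scaled library total). Such floors cover counting error only. Fas was read in all libraries, at 33.8 and 22.6 CPM in NSG wild type, 29.5 and 12.9 in NSG knockout, 51.6 and 46.9 in Balb/c wild type, and 27.1 and 33.7 in Balb/c knockout. It did not pass the threshold between knockout and wild type in either host (edgeR adjusted p = 0.628 in NSG and 0.225 in Balb/c), so knockout status rests on the labels. Carcinoma keratin and adhesion markers (6 of 6 found) were read in every library, with summed levels from 694 CPM in Balb/c clone 54 to 3751 CPM in Balb/c clone 69. The clone 54 tumor of the Balb/c host stood apart in several lists, with 10060 CPM of macrophage markers and 532 CPM of neutrophil markers.

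Together the ligands made up 3482 to 9657 CPM per library, lowest in the clone 69 tumor of the NSG host. Cxcl2, a neutrophil attractant, supplied 32.1% to 41.7% of that sum in the NSG and the Balb/c wild-type libraries, but 10.1% and 26.8% in the Balb/c knockout libraries. Per kilobase of transcript, the scale on which levels of different genes were compared, Cxcl2 was first in NSG wild type (1454 CPM per kb), NSG knockout (951) and Balb/c wild type (1770). In Balb/c knockout tumors Ccl8 was first at 3629 CPM per kb, ahead of Ccl6 at 1840 and Cxcl2 at 803. Ccl8 spanned 1497 to 5762 CPM per kb in the libraries of that group and Ccl6 1722 to 1957, so their order rested on the clone 54 tumor. The next neighbours did not overlap with Ccl6 there, since Cxcl2 spanned 474 to 1131 CPM per kb. Cxcl2 and the second gene of the list did not overlap in NSG wild type (Cxcl1, 674 to 736 CPM per kb), NSG knockout (Ccl6, 228 to 417) or Balb/c wild type (Ccl6, 981 to 1091).

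**Figure D1:**
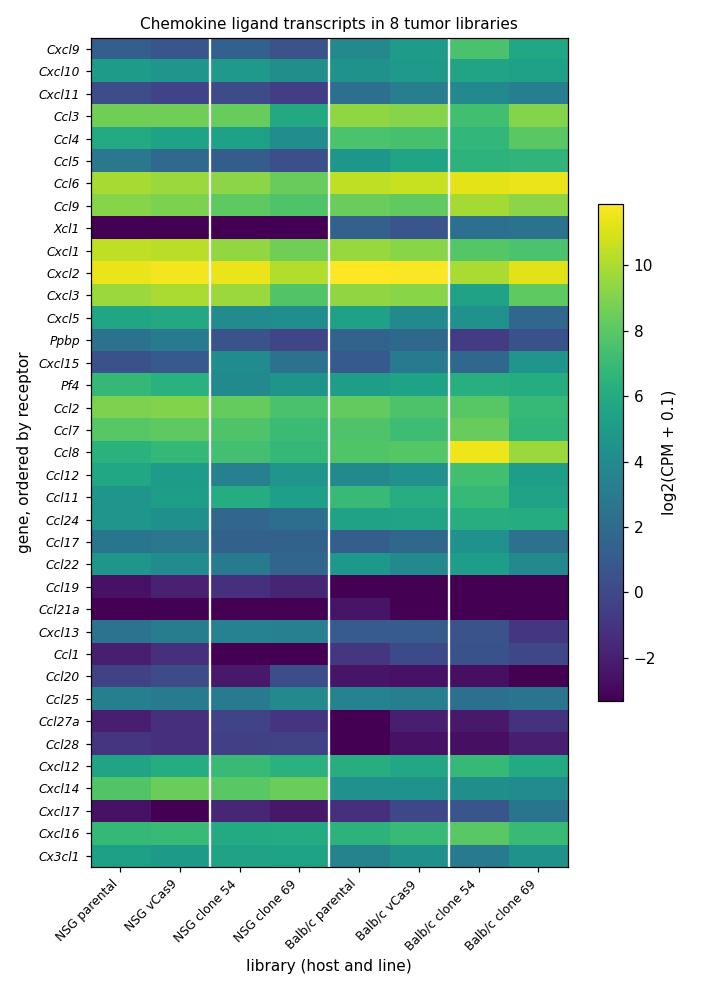
Color gives log2(CPM + 0.1) of each of the 37 chemokine ligands (vertical axis, ordered by receptor) in each of the 8 tumor libraries (horizontal axis), with white lines between the 4 groups of 2. Cxcl2, Ccl6 and Cxcl1 are bright in NSG wild type, Xcl1 is dark in all 4 NSG libraries, and Ccl8 is brightest in the Balb/c knockout libraries.

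Between hosts, the wild-type tumors of Balb/c mice had higher Cxcl9, Cxcl11, Ccl4, Ccl5, Xcl1, Ccl11 and Ccl24 than those of NSG mice, and lower Cxcl1, Pf4, Cxcl13 and Cxcl14. Below, a ligand is said to rise or fall with host where it was higher or lower in Balb/c than in NSG tumors. The largest decrease among the ligands was that of Cxcl14, a stromal and epithelial chemokine, at 13.7-fold, and Ccl5, a T cell and monocyte attractant, rose 7.07-fold. In all, 11 of 33 ligands passed the threshold (edgeR, Benjamini-Hochberg adjusted p under 0.05), 7 higher and 4 lower in Balb/c. Among all 15310 genes tested 31.5% passed, 15.3% higher and 16.2% lower, so the share of ligands was near the background. The median log2 fold change was 0.02 over the ligands and -0.08 over all genes. The number past the threshold moved with the library left out. In such a fit the group that lost a library has 1 left, which is assumed to vary like the libraries of the other 3 groups, from which the spread is taken. It was 4 ligands without NSG parental (858 genes in all) or NSG vCas9 (1270 genes), and 6 ligands without Balb/c parental (1289 genes) or Balb/c vCas9 (1482 genes). It was 13 ligands without NSG clone 54 (4450 genes) or NSG clone 69 (4439 genes), 16 without Balb/c clone 54 (6165 genes) and 18 without Balb/c clone 69 (6361 genes). Ccl5, Xcl1 and Cxcl14 passed in each of the 8 fits that left out 1 library.

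Among knockout tumors the host contrast took in more ligands. Besides Cxcl9, Cxcl11, Ccl4, Ccl5, Xcl1 and Ccl24, which also rose in wild type, Cxcl10, Ccl6, Ccl8, Ccl9, Ccl12, Ccl17, Ccl22, Ccl1, Cxcl16, Cxcl17 and Pf4 were higher in Balb/c than in NSG tumors. Cxcl1, Cxcl13, Cxcl14 and Cx3cl1 were lower. These were 21 of 33 ligands (63.6%), 17 higher and 4 lower, where 31.1% of all genes passed (15.7% higher and 15.4% lower). The median log2 fold change was 0.94 over the ligands and 0.02 over all genes. None of the ligands past the threshold changed direction under RLE or total-count scaling, but total-count scaling moved the median of all genes to -0.17 in knockout and -0.24 in wild type. With that scaling the higher and lower ligands numbered 17 and 6 in knockout, and 7 and 6 in wild type. With it, the share of higher genes among all that passed was 36.5% in wild type and 37.3% in knockout, against 48.6% and 50.5% with TMM. With RLE size factors that share was 57.9% in wild type. Leaving out the NSG clone 69 library left 13 ligands and 2461 genes in all past the threshold, against 4757 genes with all libraries. The 12 that passed in each of the 8 fits without 1 library were Ccl4, Ccl5, Ccl6, Ccl8, Ccl9, Ccl24, Cxcl9, Cxcl11, Cxcl13, Cxcl14, Pf4 and Xcl1.

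**Figure D2:**
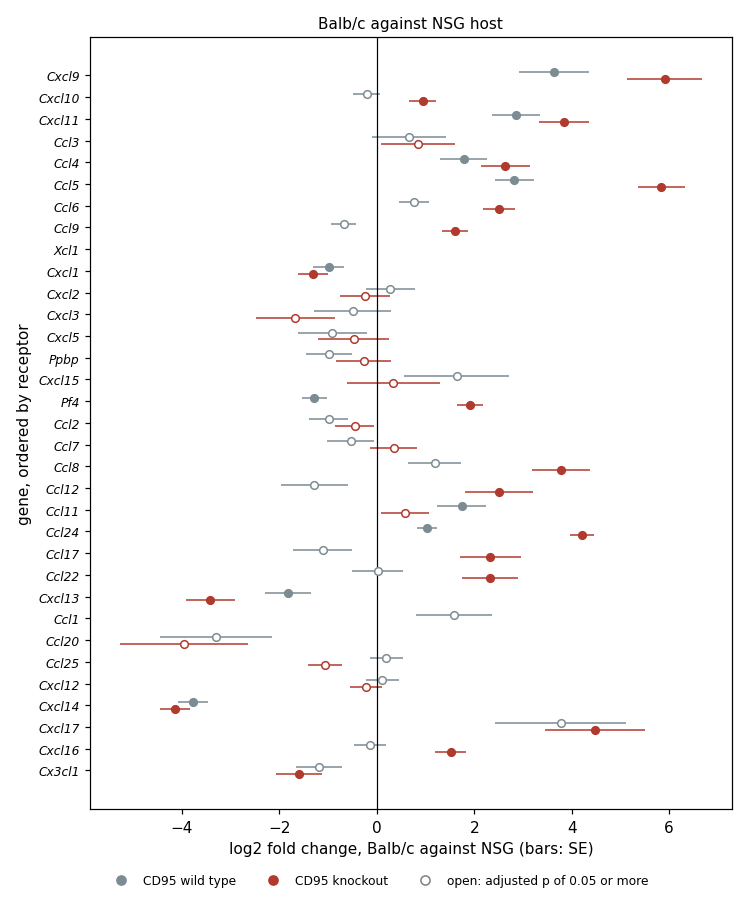
Points give the log2 fold change of Balb/c against NSG tumors for each tested ligand (vertical axis, ordered by receptor) in wild-type (grey) and knockout (red) tumors, with the standard error as bars and open points where the edgeR adjusted p was 0.05 or more. Xcl1 and, in knockout, Ccl1 are not drawn because an NSG group had 0 counts; Ccl5 and Cxcl9 lie farthest right in knockout (5.84 and 5.91) and Cxcl14 farthest left (-4.14).

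Knockout tumors of NSG mice had 5.94-fold less Ccl24, a CCR3 ligand that attracts eosinophils, than wild-type tumors, and Ccl24 was the only ligand past the threshold there. Across all genes 2 of 15310 passed (0.0131%), both lower. By an unadjusted p under 0.05, 14 of the 33 ligands differed, 2 higher and 12 lower, where 14.0% of all genes did (6.78% higher and 7.25% lower). The median log2 fold change was -0.79 over the ligands and 0.01 over all genes, and -0.64 with Ccl1 and Xcl1, at 0 counts in the NSG knockout group, held at their limits against 3 counts. Ccl24 lost the threshold in each of the 8 fits that left out 1 library (edgeR adjusted p = 0.0516 to 0.457), with log2 fold changes between -2.85 and -2.35. Without the low-count filter 3 ligands passed beside 133 genes in all, and with DESeq2 7 did beside 340. Besides Ccl24 these were Pf4 and Ppbp in both, and Ccl5, Ccl9, Ccl22 and Cxcl1 with DESeq2. Marker sums differed there too. Carcinoma markers summed to 2898 and 1907 CPM in NSG knockout against 1059 and 1319 in NSG wild type. Fibroblast markers summed to 12568 and 12476 CPM against 6501 and 9722, while macrophage sums, given for Ccl9, were lower in knockout. With edgeR 0 markers of these lists passed, and their part in the ligand values was not tested.

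In Balb/c mice no ligand passed the threshold between knockout and wild type with edgeR, while 27 genes of 15310 did (0.176%). By an unadjusted p under 0.05, 17 of the 33 ligands differed, 13 higher and 4 lower in knockout, where 30.9% of all genes did (16.6% higher and 14.3% lower). The median log2 fold change was 0.52 over the ligands and 0.06 over all genes. Without the low-count filter 9 ligands passed beside 1774 genes in all, and with DESeq2 9 did beside 2208. Ccl5, Ccl8, Ccl9, Ccl12, Ccl17, Cxcl1, Cxcl9 and Ppbp passed in both, Cxcl3 in the former and Cxcl2 in the latter. Without the Balb/c clone 69 library 10 ligands passed beside 3886 genes in all (Ccl8, Ccl9, Ccl12, Ccl17, Cxcl1, Cxcl2, Cxcl3, Cxcl9, Cxcl16 and Ppbp), and without Balb/c clone 54 none did beside 1 gene. Each of these fits rests on a knockout group of 1 tumor with no spread of its own, the first on the clone 54 tumor that stood apart in its marker lists, so neither count is a replicated result.

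The test of the difference between the hosts in the knockout effect, (knockout minus wild type in Balb/c) minus (knockout minus wild type in NSG) on the log2 scale, gave 0 ligands and 0 genes past the threshold with edgeR. By an unadjusted p under 0.05, 14 of 33 ligands differed, 12 positive and 2 negative, where 22.5% of all genes did (12.4% positive and 10.1% negative). The smallest adjusted p over all genes was 0.0691, reached by both Ccl24 and Pf4. With DESeq2 9 ligands passed beside 974 genes in all, and with no low-count filter 9 did beside 674, in both cases Ccl5, Ccl6, Ccl8, Ccl9, Ccl12, Ccl17, Ccl24, Cxcl16 and Pf4. Without Balb/c clone 69 the edgeR count was 11 ligands beside 2370 genes, again with clone 54 as the lone Balb/c knockout library. The 5 comparisons share their libraries in pairs (the NSG wild-type group, for example, is the control of the host contrast in wild type and of the knockout contrast in NSG), so agreement or opposition of their signs is not independent.

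**Figure D3:**
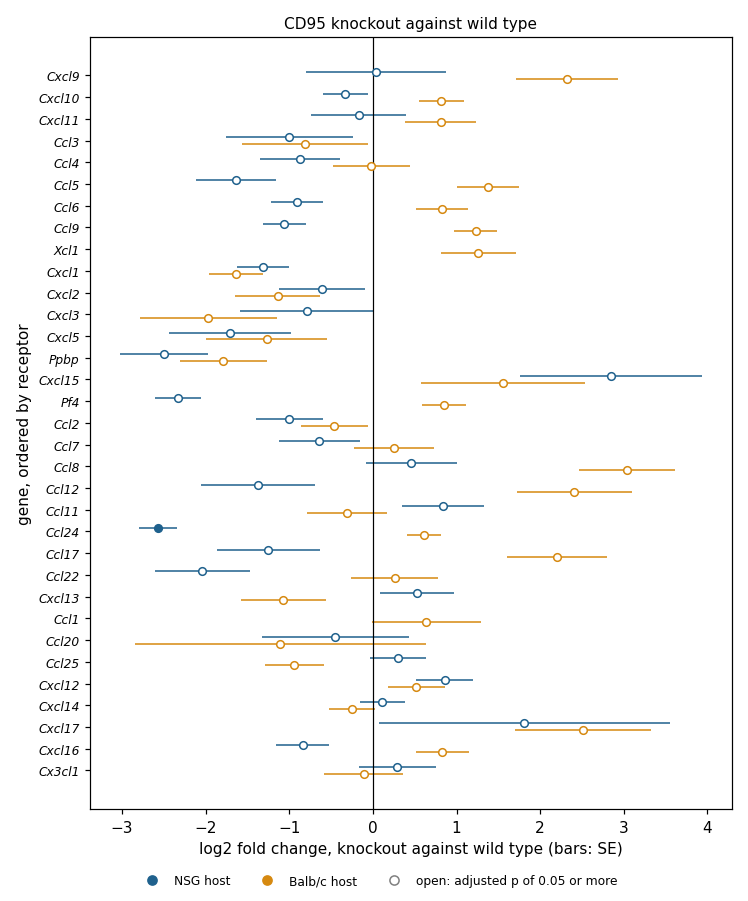
Points give the log2 fold change of knockout against wild-type tumors for each tested ligand (vertical axis, ordered by receptor) in NSG (blue) and Balb/c (orange) hosts, with the standard error as bars and open points where the edgeR adjusted p was 0.05 or more. Ccl24 in NSG (-2.57) is the only filled point; Xcl1 and Ccl1 are not drawn for NSG because the knockout group had 0 counts.

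Cxcl9, Cxcl10 and Cxcl11 encode the ligands of CXCR3 and are known as interferon-induced genes. Cxcl9 was at 2.21 and 1.57 CPM in NSG wild type, 2.57 and 1.39 in NSG knockout, 14.0 and 33.7 in Balb/c wild type, and 185 and 53.2 in Balb/c knockout. The 4 Balb/c libraries were above all NSG libraries, and both Balb/c knockout libraries were above both wild-type ones. Cxcl9 rose in Balb/c against NSG by 3.64 on the log2 scale in wild type (SE 0.72, edgeR adjusted p = 0.0101) and 5.91 in knockout (SE 0.77, edgeR adjusted p = 0.00159). The wild-type call was lost without NSG parental (edgeR adjusted p = 0.0726) or NSG vCas9 (0.0761), and the log2 fold change was 2.94 without Balb/c vCas9. In knockout it was 4.73 without Balb/c clone 54 and 6.55 without Balb/c clone 69. Knockout against wild type in Balb/c gave 2.32 (SE 0.61, unadjusted p = 0.0053, edgeR adjusted p = 0.0656), which missed the threshold. That value was 1.05 without Balb/c clone 54, 2.96 without Balb/c clone 69 and 3.02 without Balb/c vCas9.

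Cxcl10, expressed in all groups, was at 34.1 and 24.8 CPM in NSG wild type, 28.8 and 18.1 in NSG knockout, 21.8 and 28.9 in Balb/c wild type, and 47.2 and 42.4 in Balb/c knockout. The Balb/c knockout libraries were above all others, and the other groups overlapped. Cxcl10 rose with host in knockout by 0.94 (SE 0.27, edgeR adjusted p = 0.0343), a call lost with the line as a replicate block (edgeR adjusted p = 0.0683) and without Balb/c clone 54 (0.0935), Balb/c clone 69 (0.0501), Balb/c vCas9 (0.0516) or NSG clone 69 (0.183). Over 13 alternatives its adjusted p ran from 0.0145 to 0.183. Knockout against wild type in Balb/c gave 0.82 (SE 0.27, unadjusted p = 0.0166, edgeR adjusted p = 0.0954) and the host difference 1.15 (SE 0.38, unadjusted p = 0.0174, edgeR adjusted p = 0.149), both short of the threshold.

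Cxcl11, annotated as a polymorphic pseudogene in GENCODE M21, was at 1.11 and 0.745 CPM in NSG wild type, 1.07 and 0.596 in NSG knockout, 4.58 and 9.07 in Balb/c wild type, and 14.4 and 9.55 in Balb/c knockout. Each group of the Balb/c host was above both groups of the NSG host. Cxcl11 rose with host by 2.86 in wild type (SE 0.49, edgeR adjusted p = 0.00662) and 3.84 in knockout (SE 0.52, edgeR adjusted p = 0.00175). The wild-type call was lost without NSG parental (edgeR adjusted p = 0.0516) or NSG vCas9 (0.057). Cxcl10 and Cxcl11 both overlap Art3 on the other strand, which had 28 to 78 counts per library, and the strand setting of the counting is not given. Ifng, which encodes the interferon that induces these ligands, had 0 counts in all NSG libraries. In Balb/c its CPM were 3.31 and 6.3 in wild type and 17.4 and 12.3 in knockout, at least 21.1-fold and 48.1-fold above the limit of 3 counts per library. T cell markers (7 of 8 found) summed to 3.96 to 10 CPM in NSG and 281 to 343 CPM in Balb/c, with Cd3g at 0 in 3 of 4 NSG libraries. NK cell markers (5 of 5 found) summed to 1.94 to 9.52 CPM in NSG and 34.9 to 65.0 CPM in Balb/c, with Ncr1 at 0 in all NSG and Klra8 at 0 in all Balb/c libraries. Their part in the values of the CXCR3 ligands was not tested.

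Ccl3, Ccl4, Ccl5, Ccl6 and Ccl9 are neighbours on chromosome 11 and attract T cells and myeloid cells. Ccl5 was at 6.71 and 3.56 CPM in NSG wild type, 2.14 and 1.19 in NSG knockout, 25.1 and 48.0 in Balb/c wild type, and 91.5 and 99.1 in Balb/c knockout. The 4 groups did not overlap, with NSG knockout lowest and Balb/c knockout highest. Ccl5 rose with host by 2.82 in wild type (SE 0.4, edgeR adjusted p = 0.00383) and by 5.84 in knockout (SE 0.48, edgeR adjusted p = 0.000359), a 57.3-fold difference. Knockout against wild type gave -1.64 in NSG (SE 0.48, unadjusted p = 0.00975, edgeR adjusted p = 0.25) and 1.38 in Balb/c (SE 0.37, unadjusted p = 0.00561, edgeR adjusted p = 0.0664). The host difference was 3.02 (SE 0.61, unadjusted p = 0.00111, edgeR adjusted p = 0.0854), and none of these 3 values passed. T cells and NK cells are known sources of Ccl5, and their marker sums are those given for the CXCR3 ligands. Their part in the Ccl5 values was not tested.

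Ccl4 was at 61.9 and 45.4 CPM in NSG wild type, 41.3 and 17.3 in NSG knockout, 190 and 179 in Balb/c wild type, and 109 and 256 in Balb/c knockout. All Balb/c libraries were above all NSG libraries. Ccl4 rose with host by 1.78 in wild type (SE 0.48, edgeR adjusted p = 0.0271) and 2.64 in knockout (SE 0.5, edgeR adjusted p = 0.00653). The wild-type call was lost with the line as a replicate block (edgeR adjusted p = 0.0848) and without Balb/c parental (0.0997), Balb/c vCas9 (0.0794), NSG parental (0.104) or NSG vCas9 (0.152), within a range of 0.000369 to 0.152 over 13 alternatives. In knockout the log2 fold change was 1.91 without Balb/c clone 69 and 3.40 without NSG clone 54. Its neighbour Ccl3 was at 383 and 388 CPM in NSG wild type, 325 and 59.2 in NSG knockout, 650 and 571 in Balb/c wild type, and 155 and 540 in Balb/c knockout. Clones 54 and 69 traded places between hosts for Ccl3. It passed no comparison in the main edgeR fit (TMM, all 8 libraries, no block), though it passed a host contrast in some alternatives.

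Ccl6 and Ccl9 are CCR1 ligands of rodents, made largely by myeloid cells. Ccl6 was at 962 and 787 CPM in NSG wild type, 601 and 328 in NSG knockout, 1412 and 1572 in Balb/c wild type, and 2480 and 2818 in Balb/c knockout. Its groups kept the same order as those of Ccl5, again without overlap. Ccl6 rose with host in knockout by 2.51 (SE 0.33, edgeR adjusted p = 0.0016). Knockout against wild type gave -0.91 in NSG (SE 0.31, unadjusted p = 0.0199, edgeR adjusted p = 0.29), 0.83 in Balb/c (SE 0.31, unadjusted p = 0.0299, edgeR adjusted p = 0.124) and a host difference of 1.74 (SE 0.44, unadjusted p = 0.00449, edgeR adjusted p = 0.107), none past the threshold. Ccl6 overlaps the transcript E230016K23Rik on the other strand, which had 14 to 162 counts.

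Ccl9 was at 550 and 471 CPM in NSG wild type, 281 and 209 in NSG knockout, 344 and 295 in Balb/c wild type, and 900 and 599 in Balb/c knockout. Unlike Ccl6, its Balb/c wild-type libraries lay below the NSG wild-type ones, and the 4 groups did not overlap. Ccl9 rose with host in knockout by 1.61 (SE 0.27, edgeR adjusted p = 0.00383). The knockout contrast was -1.06 in NSG (SE 0.26, unadjusted p = 0.00389, edgeR adjusted p = 0.208) and 1.23 in Balb/c (SE 0.26, unadjusted p = 0.00164, edgeR adjusted p = 0.0569). The host difference of 2.29 (SE 0.37, unadjusted p = 0.000286, edgeR adjusted p = 0.0778) also missed the threshold. Macrophage markers (7 of 7 found, none at 0) summed to 2914 and 2992 CPM in NSG wild type, 1579 and 2028 in NSG knockout, 2144 and 2516 in Balb/c wild type, and 10060 and 4209 in Balb/c knockout, and their part in the Ccl6 and Ccl9 values was not tested.

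Xcl1, the C family ligand that draws cross-presenting dendritic cells through XCR1, had 0 counts in the 4 NSG libraries. In Balb/c it had 29 and 22 counts in wild type and 86 and 68 in knockout, or 2.46, 1.52, 4.55 and 4.96 CPM. Against the limit of 3 counts per library wild-type tumors of the Balb/c host had at least 8.74-fold more (edgeR adjusted p = 0.00538) and knockout tumors at least 15.4-fold more (edgeR adjusted p = 0.00213). The knockout libraries of Balb/c were above the wild-type ones, by a value of 1.26 that missed the threshold (SE 0.45, unadjusted p = 0.0319, edgeR adjusted p = 0.128). Xcl1 overlaps Gm20743 on the other strand, which had 0 counts in NSG and 7 to 27 in Balb/c. T cells and NK cells are known to make Xcl1, and their marker sums are those given for the CXCR3 ligands. Klra8, one of the NK cell markers, went the other way, and the part of these markers in the Xcl1 values was not tested.

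**Figure D4:**
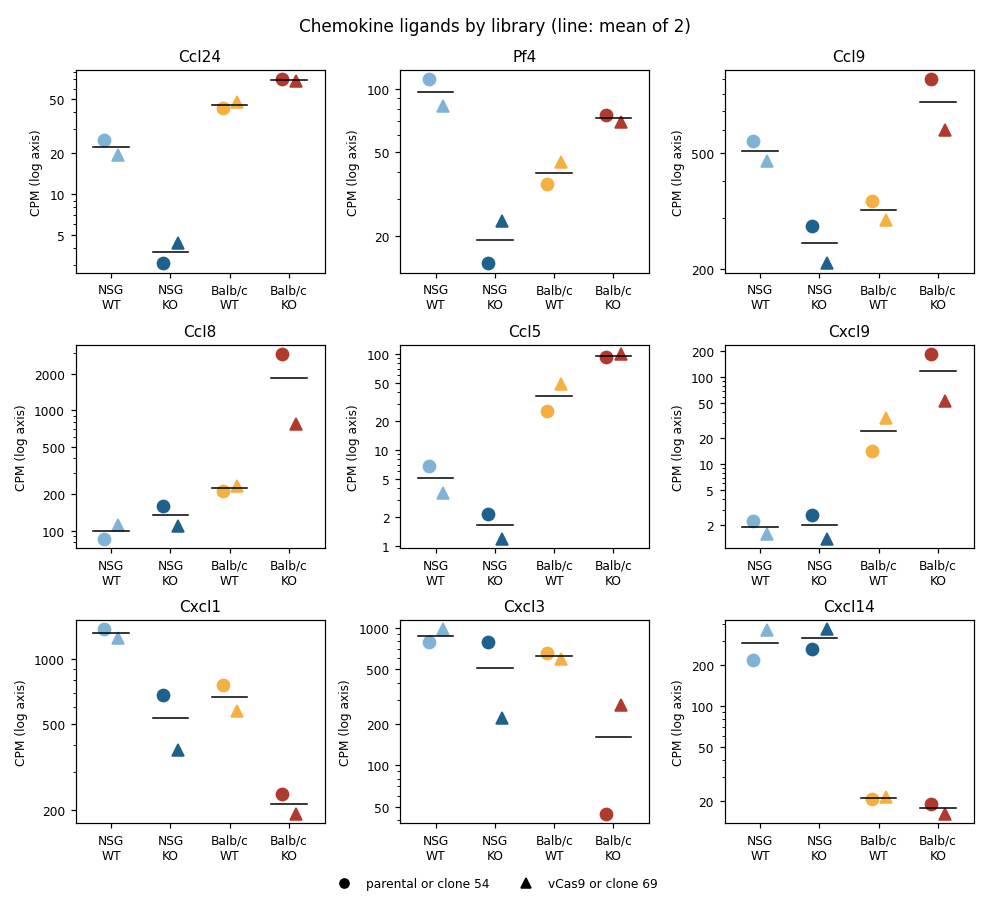
Each panel gives the CPM (log axis, ranges differ) of a ligand in the 8 libraries, by group on the horizontal axis, with circles for parental or clone 54, triangles for vCas9 or clone 69 and a line at the mean of 2. Ccl24 and Pf4 are lowest in NSG knockout (3.10 and 4.37, 14.8 and 23.6 CPM), Cxcl1 is lowest in Balb/c knockout (236 and 192 CPM), and Cxcl14 is separated by host (217 to 363 CPM in NSG and 16.1 to 21.3 in Balb/c).

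The CXCR2 ligands attract neutrophils, and the tested set held Cxcl1, Cxcl2, Cxcl3, Cxcl5, Ppbp and Cxcl15. Cxcl1 was at 1377 and 1260 CPM in NSG wild type, 685 and 379 in NSG knockout, 758 and 573 in Balb/c wild type, and 236 and 192 in Balb/c knockout. It was lower in knockout than in wild type in both hosts without overlap, and lower in Balb/c than in NSG at each CD95 status. Cxcl1 fell with host by 0.99 on the log2 scale in wild type (SE 0.31, edgeR adjusted p = 0.0446) and by 1.31 in knockout (SE 0.31, edgeR adjusted p = 0.0164). In wild type that call was lost with the line as a replicate block (edgeR adjusted p = 0.0642) and with RLE size factors (0.0647). It was also lost without any 1 of the 4 wild-type libraries (0.108 without Balb/c parental, 0.275 without Balb/c vCas9, 0.17 without NSG parental and 0.127 without NSG vCas9), and the range over 13 alternatives was 0.0185 to 0.275. In knockout it was lost without Balb/c clone 69 (0.0535) or NSG clone 54 (0.0756). The knockout contrast was -1.31 in NSG (SE 0.31, unadjusted p = 0.00311, edgeR adjusted p = 0.203) and -1.64 in Balb/c (SE 0.32, unadjusted p = 0.000863, edgeR adjusted p = 0.0564), both short of the threshold.

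Cxcl2 was at 2790 and 3218 CPM in NSG wild type, 2811 and 1119 in NSG knockout, 3801 and 3511 in Balb/c wild type, and 980 and 2337 in Balb/c knockout. Balb/c knockout libraries were below Balb/c wild-type ones, and no comparison passed with edgeR over all libraries. Cxcl3 was at 783 and 977 CPM in NSG wild type, 794 and 221 in NSG knockout, 657 and 595 in Balb/c wild type, and 44.3 and 275 in Balb/c knockout. Its lowest value, in the clone 54 tumor of the Balb/c host, came from the library with the lowest sum of neutrophil markers. The Cxcl3 knockout contrast in Balb/c was -1.97 (SE 0.82, unadjusted p = 0.0431, edgeR adjusted p = 0.149), short of the threshold, and was -1.29 without Balb/c clone 54 and -3.81 without Balb/c clone 69. For Cxcl2 the unadjusted p of the same contrast was 0.058. The promoters of Cxcl1, Cxcl2 and Cxcl3 were chosen for printing with this direction known, so the letters they share say nothing about it.

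Cxcl5, an epithelial member of the set, was at 48.8 and 59.1 CPM in NSG wild type, 15.8 and 17.2 in NSG knockout, 42.3 and 15.4 in Balb/c wild type, and 20.3 and 3.28 in Balb/c knockout. NSG knockout libraries were below NSG wild-type ones, by -1.71 (SE 0.73, unadjusted p = 0.048, edgeR adjusted p = 0.351), and the Balb/c groups overlapped. Ppbp, a platelet-stored ligand, ranged from 0.529 to 7.45 CPM. Its knockout contrast was -2.50 in NSG (SE 0.53, unadjusted p = 0.00156, edgeR adjusted p = 0.185) and -1.79 in Balb/c (SE 0.52, unadjusted p = 0.00891, edgeR adjusted p = 0.0758), with no overlap of the groups in either host and neither past the threshold. The Balb/c value was -2.54 without Balb/c clone 69. Cxcl15, a ligand best known from lung epithelium, went the other way in NSG, at 1.25 and 1.82 CPM in wild type and 17.1 and 5.07 in knockout, while in Balb/c it was at 1.87 and 7.55 in wild type and 3.33 and 24.9 in knockout. The Cxcl15 contrast in NSG was 2.85 (SE 1.09, unadjusted p = 0.0311, edgeR adjusted p = 0.316), short of the threshold, and was 1.72 without NSG clone 54 and 3.48 without NSG clone 69. Neutrophil markers (7 of 7 found, none at 0) summed to 1348 and 1692 CPM in NSG wild type, 3086 and 1464 in NSG knockout, 7516 and 5860 in Balb/c wild type, and 532 and 2536 in Balb/c knockout. Within Balb/c these sums were lower in knockout than in wild type, as Cxcl1, Cxcl2 and Cxcl3 were. In wild-type tumors the sums were higher in Balb/c than in NSG. There Cxcl1 and Cxcl3 were lower and Cxcl2 higher, and of these only Cxcl1 passed the threshold. In NSG the sums of knockout and wild type overlapped, while Cxcl1 was lower in knockout. The part of the neutrophil sums in the ligand values was not tested.

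Pf4, platelet factor 4, lies between Ppbp and Cxcl3 on chromosome 5 and is made by megakaryocytes and also by macrophages. It was at 111 and 82.5 CPM in NSG wild type, 14.8 and 23.6 in NSG knockout, 35.1 and 44.7 in Balb/c wild type, and 75.2 and 69.2 in Balb/c knockout. No groups overlapped, and knockout was below wild type in NSG but above it in Balb/c. Pf4 fell with host in wild type by 1.28 on the log2 scale (SE 0.26, edgeR adjusted p = 0.0109) and rose with host in knockout by 1.91 (SE 0.27, edgeR adjusted p = 0.00208). The wild-type call was lost without Balb/c parental (edgeR adjusted p = 0.0801) or NSG parental (0.08). The knockout contrast was -2.33 in NSG (SE 0.27, unadjusted p = 2.66e-05, edgeR adjusted p = 0.08) and 0.85 in Balb/c (SE 0.26, unadjusted p = 0.0103, edgeR adjusted p = 0.0795). Its host difference of 3.19 (SE 0.37, unadjusted p = 2.76e-05, edgeR adjusted p = 0.0691) missed the threshold as well. With no low-count filter the NSG contrast and the host difference passed (edgeR adjusted p = 0.000585 and 0.000816), as they did with DESeq2 (2.48e-11 and 5.37e-10), and the host difference also passed without Balb/c clone 69 (edgeR adjusted p = 0.00728). Over all alternatives the adjusted p of the NSG contrast reached 0.656 and that of the host difference 0.307. Platelet and megakaryocyte markers (6 of 6 found) summed to 8.93 and 9.85 CPM in NSG wild type, 12.6 and 10 in NSG knockout, 14 and 17.7 in Balb/c wild type, and 7.93 and 17.7 in Balb/c knockout, with Gp1bb at 0 in 7 of the 8 libraries. The macrophage sums are those given for Ccl9. In each host these sums differed between knockout and wild type in the same direction as Pf4. By an unadjusted p under 0.05, 2 of the 7 macrophage markers were lower in NSG knockout (28.6%). Among all genes 14.0% differed there in either direction and 7.25% were lower. In Balb/c knockout 6 of the 7 were higher (85.7%), against 30.9% of all genes in either direction and 16.6% higher. With edgeR 0 of the 7 macrophage markers passed either knockout contrast. Of the 3 platelet and megakaryocyte markers tested, 0 had an unadjusted p under 0.05 in either. The part of both lists in the Pf4 values was not tested.

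CCR2 ligands recruit monocytes. Ccl8 and Ccl12 are listed beside them here, and the receptors they act on were not measured. Ccl8 was at 85.6 and 111 CPM in NSG wild type, 160 and 110 in NSG knockout, 213 and 237 in Balb/c wild type, and 2944 and 765 in Balb/c knockout. Both Balb/c knockout libraries were above all others, clone 54 the highest, and both Balb/c groups were above the NSG groups. Ccl8 rose with host in knockout by 3.78 (SE 0.59, edgeR adjusted p = 0.00314), and by 2.48 without Balb/c clone 54 and 4.45 without Balb/c clone 69. The knockout contrast in Balb/c was 3.04 (SE 0.57, unadjusted p = 0.00075, edgeR adjusted p = 0.0564) and the host difference 2.59 (SE 0.77, unadjusted p = 0.00979, edgeR adjusted p = 0.128), neither past the threshold. They were 1.66 and 1.19 without Balb/c clone 54, and 3.72 and 3.26 without Balb/c clone 69. Macrophage marker sums, given in full for Ccl9, were 10060 and 4209 CPM in Balb/c knockout against 2144 and 2516 in Balb/c wild type. Their part in the Ccl8 and Ccl12 values was not tested.

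Ccl12 was at 54.8 and 32.9 CPM in NSG wild type, 9.62 and 24.2 in NSG knockout, 15.0 and 21 in Balb/c wild type, and 156 and 35.6 in Balb/c knockout. The high value was again that of clone 54 in Balb/c. Ccl12 rose with host in knockout by 2.50 (SE 0.7, edgeR adjusted p = 0.0302), a call lost with the line as a replicate block (edgeR adjusted p = 0.143) and in the fits without Balb/c clone 54 (log2 fold change 1.04, 0.164), NSG clone 54 (0.136), NSG clone 69 (3.32, 0.0545), NSG parental (0.0508) or NSG vCas9 (0.0504). Without Balb/c clone 69 it was 3.21, and the adjusted p ran from 0.000238 to 0.164 over 13 alternatives. The Ccl12 knockout contrast in Balb/c was 2.41 (SE 0.69, unadjusted p = 0.0085, edgeR adjusted p = 0.075), and the host difference was 3.78 (SE 0.97, unadjusted p = 0.0047, edgeR adjusted p = 0.107), both short of the threshold. Without Balb/c clone 54 they were 0.88 and 2.23, without Balb/c clone 69 they were 3.12 and 4.5, and the host difference was 4.61 without NSG clone 69.

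Ccl2 and Ccl7, the main monocyte attractants, did not follow Ccl8. Ccl2 was at 477 and 512 CPM in NSG wild type, 313 and 183 in NSG knockout, 302 and 197 in Balb/c wild type, and 245 and 118 in Balb/c knockout, so that NSG wild type was above all others. Its knockout contrast in NSG was -1.0 (SE 0.4, unadjusted p = 0.0373, edgeR adjusted p = 0.33), short of the threshold. Ccl7 was at 244 and 275 CPM in NSG wild type, 204 and 130 in NSG knockout, 212 and 144 in Balb/c wild type, and 321 and 103 in Balb/c knockout. Most of its groups overlapped, and it passed no comparison with edgeR over all libraries. Their receptor gene Ccr2 rose with host by 1.32 in wild type (SE 0.32, edgeR adjusted p = 0.0193) and 1.52 in knockout (SE 0.32, edgeR adjusted p = 0.00978).

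Ccl11 and Ccl24, eotaxins, act on CCR3 of eosinophils. Ccl24 (chr5:135569937-135573049, minus strand, GRCm38) was at 25.1 and 19.5 CPM in NSG wild type, 3.10 and 4.37 in NSG knockout, 43.1 and 47.9 in Balb/c wild type, and 70.5 and 68.0 in Balb/c knockout. The 4 groups did not overlap and the libraries of a group lay close together. Ccl24 was lower in knockout than in wild type in NSG, with a log2 difference of -2.57 (SE 0.23, edgeR adjusted p = 0.0316), the one knockout call among the ligands, which did not hold without any single library (edgeR adjusted p = 0.203 without NSG clone 54, 0.273 without NSG clone 69, 0.457 without NSG parental, 0.203 without NSG vCas9, and 0.0516 to 0.0722 without a Balb/c library). In Balb/c the contrast was 0.61 (SE 0.2, unadjusted p = 0.0156, edgeR adjusted p = 0.0931), and the host difference was 3.18 (SE 0.3, unadjusted p = 6.52e-06, edgeR adjusted p = 0.0691), neither past the threshold. Ccl24 rose with host by 1.03 in wild type (SE 0.2, edgeR adjusted p = 0.00996) and by 4.21 in knockout (SE 0.24, edgeR adjusted p = 0.000186), an 18.4-fold difference. The wild-type call was lost without Balb/c vCas9 (edgeR adjusted p = 0.0524) or NSG vCas9 (0.0778).

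Ccl11 was at 24.6 and 34.7 CPM in NSG wild type, 68.2 and 38.2 in NSG knockout, 126 and 72.4 in Balb/c wild type, and 115 and 44.0 in Balb/c knockout. Its Balb/c wild-type libraries were above all NSG libraries, while the knockout groups overlapped. Ccl11 rose with host in wild type by 1.74 (SE 0.5, edgeR adjusted p = 0.0337), a call lost without Balb/c parental (edgeR adjusted p = 0.167), Balb/c vCas9 (0.0565), NSG parental (0.181) or NSG vCas9 (0.108). The receptor gene Ccr3 rose with host far more, by 6.86 in wild type (SE 0.4, edgeR adjusted p = 0.000267) and 6.15 in knockout (SE 0.38, edgeR adjusted p = 0.000238). Eosinophil markers (5 of 5 found, Ccr3 among them) summed to 4.22 and 9.93 CPM in NSG wild type, 33.1 and 27.4 in NSG knockout, 295 and 371 in Balb/c wild type, and 307 and 587 in Balb/c knockout, with Epx at 0 in all NSG libraries. In NSG the sum was higher in knockout, mainly through Siglecf, with a mean of 26.4 CPM against 5.49 in wild type. Ccr3 had a mean of 3.4 CPM against 1.46. Siglecf and Ccr3, 2 of the 5, were higher there by an unadjusted p under 0.05 (40.0%). Among all genes 14.0% had such a p in either direction and 6.78% were higher. With edgeR 0 of the 5 passed the threshold. The part of these markers in the eotaxin values was not tested. Macrophages, a known source of Ccl24, had marker sums in the order given for Ccl9, and their part was not tested either.

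Ccl17 and Ccl22 act on CCR4, found on regulatory and type 2 helper T cells, and come mainly from dendritic cells and macrophages. Ccl17 was at 5.81 and 6.46 CPM in NSG wild type, 2.57 and 2.58 in NSG knockout, 2.38 and 3.25 in Balb/c wild type, and 20.9 and 4.96 in Balb/c knockout. The clone 54 tumor of the Balb/c host was the highest, and clone 69 there lay below both NSG wild-type libraries. Ccl17 rose with host in knockout by 2.33 (SE 0.62, edgeR adjusted p = 0.0247), a call lost with the line as a replicate block (edgeR adjusted p = 0.0655) and without Balb/c clone 54 (log2 fold change 0.92, 0.101), NSG clone 54 (0.0996) or NSG clone 69 (0.118). Without Balb/c clone 69 it was 3.02, and the adjusted p ran from 0.00092 to 0.118 over 13 alternatives. The knockout contrast in Balb/c was 2.20 (SE 0.6, unadjusted p = 0.00676, edgeR adjusted p = 0.0697) and the host difference 3.44 (SE 0.86, unadjusted p = 0.0041, edgeR adjusted p = 0.106), neither past the threshold. These values were 0.71 and 1.94 without Balb/c clone 54, and without Balb/c clone 69 they were 2.89 and 4.14.

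Ccl22 was at 25.6 and 16.4 CPM in NSG wild type, 7.16 and 3.08 in NSG knockout, 27.2 and 15.4 in Balb/c wild type, and 36.3 and 14.7 in Balb/c knockout. Its NSG knockout libraries were the lowest, and the other 3 groups overlapped. Ccl22 rose with host in knockout by 2.32 (SE 0.57, edgeR adjusted p = 0.0182), a call lost without Balb/c clone 54 (log2 fold change 1.5, edgeR adjusted p = 0.0726) or NSG clone 69 (0.11), and at 3.05 without NSG clone 54. The knockout contrast in NSG was -2.04 (SE 0.57, unadjusted p = 0.00716, edgeR adjusted p = 0.241) and the host difference 2.30 (SE 0.77, unadjusted p = 0.0171, edgeR adjusted p = 0.148), short of the threshold. Leaving out 1 library moved the NSG contrast between -2.77 (NSG clone 54) and -1.56 (NSG clone 69), and the host difference between 1.39 (Balb/c clone 54) and 3.04 (NSG clone 54). Dendritic cell markers (6 of 6 found, none at 0) summed to 33.6 and 30.3 CPM in NSG wild type and 21.6 and 24.7 in NSG knockout. In Balb/c they summed to 54.2 and 48.7 CPM in wild type and 99.6 and 78.1 in knockout. Macrophage marker sums are those given for Ccl9, highest in the clone 54 tumor of the Balb/c host, as Ccl17 was. The part of both lists in the CCR4 ligand values was not tested.

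The lymphoid homing ligands were sparse. Ccl19 and Ccl21a, the CCR7 ligands of lymph nodes, had at most 3 and 1 counts in any library. Cxcl13, the CXCR5 ligand that draws B cells to follicles, was at 5.54 and 8.53 CPM in NSG wild type, 10.6 and 9.64 in NSG knockout, 1.95 and 2.01 in Balb/c wild type, and 1.37 and 0.437 in Balb/c knockout. Every NSG library was above every Balb/c library. Cxcl13 fell with host by 1.82 on the log2 scale in wild type (SE 0.47, edgeR adjusted p = 0.024) and by 3.42 in knockout (SE 0.5, edgeR adjusted p = 0.00245), the latter -4.52 without Balb/c clone 54. The wild-type call was lost with the line as a replicate block (edgeR adjusted p = 0.0592) and without Balb/c parental (0.113), Balb/c vCas9 (0.124), NSG parental (0.0683) or NSG vCas9 (0.128), within 0.00513 to 0.128 over 13 alternatives. Its host difference of the knockout effect, -1.60 (SE 0.67, unadjusted p = 0.0438, edgeR adjusted p = 0.211), missed the threshold and was -2.79 without Balb/c clone 54 and -1.04 without Balb/c clone 69. The sums of B cell markers (6 of 6 found) went the other way, at 3.74 to 6.13 CPM in NSG and 30.6 to 191 CPM in Balb/c. All 6 passed as higher with host in wild type, but only 3 did in knockout, where Pax5 overlapped between hosts. In Balb/c knockout Cd22 alone was at 45.6 and 20.3 CPM, of sums of 52.2 and 30.6 CPM. The part of these markers in the Cxcl13 values was not tested. The receptor gene Cxcr5 rose with host in wild type by 2.69 (SE 0.56, edgeR adjusted p = 0.0123), while in knockout its value was 0.02 (SE 0.58, edgeR adjusted p = 0.983), with mean levels of 3.14 CPM in Balb/c and 3.07 in NSG. Its host difference of the knockout effect, -2.67 (SE 0.8, edgeR adjusted p = 0.13), missed the threshold.

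Ccl1, Ccl20 and Ccl25 act on CCR8, CCR6 and CCR9, receptors of regulatory T cells, of B cells and T helper cells, and of gut-homing lymphocytes. Ccl1 had 2 and 4 counts in NSG wild type, 0 and 0 in NSG knockout, 5 and 14 in Balb/c wild type, and 25 and 12 in Balb/c knockout. In knockout it was at least 3.55-fold higher in Balb/c than the limit of 3 counts per NSG library (edgeR adjusted p = 0.012), a call lost without NSG clone 69 (edgeR adjusted p = 0.0568). Its knockout contrast in NSG (unadjusted p = 0.0363, edgeR adjusted p = 0.33) and host difference (unadjusted p = 0.028, edgeR adjusted p = 0.176) missed the threshold, and both fitted values depend on the group at 0. The receptor gene Ccr8 had 0 counts in NSG wild type and, in Balb/c, 5.18 and 4.85 CPM in wild type, at least 22.0-fold above the limit (edgeR adjusted p = 0.00175). Ccl20 had at most 12 counts in any library. It had 2 in all in Balb/c wild type against 22 in NSG wild type (ratio of NSG to Balb/c 10.9, exact 95% counting interval 2.67 to 95.4). In knockout it had 1 against 12 (ratio 20.2, interval 2.98 to 862). It passed no comparison in the main edgeR fit (TMM, all 8 libraries, no block). In some alternatives it did, such as the host contrast in knockout with total-count scaling.

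Ccl25 was at 9.34 and 7.95 CPM in NSG wild type, 7.16 and 14.1 in NSG knockout, 10.7 and 9.0 in Balb/c wild type, and 4.65 and 5.61 in Balb/c knockout. Balb/c knockout libraries were the lowest, by -0.94 against wild type (SE 0.35, unadjusted p = 0.0264, edgeR adjusted p = 0.117), with a host difference of -1.24 (SE 0.49, unadjusted p = 0.0342, edgeR adjusted p = 0.189), neither past the threshold. Ccl25 overlaps Elavl1 on the other strand, which had 830 to 1942 counts per library against 67 to 142 for Ccl25. Ccl27a and Ccl28, the CCR10 ligands of skin and mucosa, had 0 to 7 counts.

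Cxcl12 and Cxcl14 are ligands of stromal cells. Cxcl14 (chr13:56288643-56296551, minus strand, GRCm38) was at 217 and 358 CPM in NSG wild type, 259 and 363 in NSG knockout, 20.6 and 21.3 in Balb/c wild type, and 19.1 and 16.1 in Balb/c knockout. The hosts were separated by more than 10-fold in every pair of libraries, and knockout and wild type overlapped in NSG but not in Balb/c, where knockout was lower. Cxcl14 fell with host by 3.77 on the log2 scale in wild type (SE 0.3, edgeR adjusted p = 0.000599) and by 4.14 in knockout (SE 0.31, edgeR adjusted p = 0.000296), and it passed in all 13 alternatives of both comparisons. Fibroblast markers (6 of 6 found, none at 0) summed to 6501 to 12568 CPM in NSG and 1673 to 5238 CPM in Balb/c, and their part in the Cxcl14 values was not tested. Cxcl12, the CXCR4 ligand, was at 46.7 and 68.4 CPM in NSG wild type, 124 and 85.1 in NSG knockout, 71.4 and 53.1 in Balb/c wild type, and 115 and 63.6 in Balb/c knockout. The part of the fibroblast sums in these values was not tested. Of the groups compared, those of NSG alone did not overlap, where knockout was higher by 0.86 (SE 0.34, unadjusted p = 0.0343, edgeR adjusted p = 0.326), short of the threshold. The receptor gene Cxcr4 rose with host by 1.80 in wild type (SE 0.23, edgeR adjusted p = 0.00241) and 1.89 in knockout (SE 0.23, edgeR adjusted p = 0.0012).

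Cxcl17, a mucosal ligand, had 1 and 0 counts in NSG wild type, 2 and 1 in NSG knockout, 4 and 13 in Balb/c wild type, and 28 and 81 in Balb/c knockout. Each Balb/c library had more counts than any NSG library. In knockout the ratio of Balb/c to NSG was 21.6 (exact 95% counting interval 7.20 to 106; edgeR adjusted p = 0.0142), a call lost without NSG clone 54 (edgeR adjusted p = 0.0574) or NSG clone 69 (0.0958), while the fitted log2 fold change moved from 4.48 to 3.18 without Balb/c clone 69, 5.14 without Balb/c clone 54 and 5.08 without NSG clone 54. Knockout against wild type in Balb/c gave 2.51 (SE 0.81, unadjusted p = 0.0148, edgeR adjusted p = 0.0916), short of the threshold, and was 1.22 without Balb/c clone 69, 3.1 without Balb/c clone 54 and 3.3 without Balb/c vCas9. Cxcl17 overlaps the antisense transcript 4732471J01Rik, which had 15 to 39 counts.

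Cxcl16 and Cx3cl1 are made as transmembrane ligands, for CXCR6 and CX3CR1. Cxcl16 was at 112 and 120 CPM in NSG wild type, 63.6 and 66.1 in NSG knockout, 89.6 and 121 in Balb/c wild type, and 251 and 122 in Balb/c knockout. NSG knockout was lowest, and in Balb/c knockout clone 54 was above all other libraries while clone 69 lay at the level of the higher wild-type library. Cxcl16 rose with host in knockout by 1.52 (SE 0.32, edgeR adjusted p = 0.0105), and by 0.88 without Balb/c clone 54. That call was lost without NSG clone 54 (edgeR adjusted p = 0.0546) or NSG clone 69 (0.0598). The knockout contrast was -0.84 in NSG (SE 0.32, unadjusted p = 0.0311, edgeR adjusted p = 0.316) and 0.83 in Balb/c (SE 0.32, unadjusted p = 0.0317, edgeR adjusted p = 0.128), with a host difference of 1.66 (SE 0.45, unadjusted p = 0.00623, edgeR adjusted p = 0.113), none past the threshold. The Balb/c contrast was 0.11 and the host difference 0.93 without Balb/c clone 54, and without Balb/c clone 69 they were 1.26 and 2.1. Cxcl16 overlaps Zmynd15 on the other strand, which had 45 to 516 counts and was also highest in the clone 54 tumor of the Balb/c host. The receptor gene Cxcr6 rose with host by 4.10 in wild type (SE 0.5, edgeR adjusted p = 0.00216) and 4.95 in knockout (SE 0.52, edgeR adjusted p = 0.000747).

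Cx3cl1, also called fractalkine, was at 40.6 and 31.1 CPM in NSG wild type, 42.9 and 44.8 in NSG knockout, 11.3 and 20.0 in Balb/c wild type, and 7.46 and 21.9 in Balb/c knockout. All NSG libraries were above all Balb/c libraries. It fell with host in knockout by 1.59 on the log2 scale (SE 0.47, edgeR adjusted p = 0.0366), a call lost with the line as a replicate block (edgeR adjusted p = 0.0547) and without Balb/c clone 54 (0.0594), NSG clone 54 (0.0911), NSG clone 69 (0.119), NSG parental (0.0638) or NSG vCas9 (0.0627). The log2 fold change was -2.55 without Balb/c clone 69, and the adjusted p ran from 0.00334 to 0.119 over 13 alternatives. The receptor gene Cx3cr1 fell with host in wild type by 2.86 on the log2 scale (SE 0.57, edgeR adjusted p = 0.0103).

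Of the 23 chemokine receptor genes, all of which were tested, 12 rose and 1 fell with host in wild type (56.5% against the 31.5% of all genes), and 10 rose and 2 fell in knockout (52.2% against 31.1%). None passed in a knockout contrast with edgeR, where 6 in NSG (26.1%, against 14.0% of all genes) and 9 in Balb/c (39.1%, against 30.9%) had an unadjusted p under 0.05. With DESeq2 4 receptors passed in NSG beside 340 genes in all, and 6 in Balb/c beside 2208. Cxcr3, the receptor of Cxcl9 to Cxcl11, was at 0.969 and 1.66 CPM in NSG wild type, 9.84 and 8.55 in NSG knockout, 3.82 and 5.26 in Balb/c wild type, and 13.6 and 10.1 in Balb/c knockout. Unlike its ligands in NSG, it was higher in knockout in both hosts, by 2.81 in NSG (SE 0.37, unadjusted p = 6.86e-05, edgeR adjusted p = 0.0841) and 1.38 in Balb/c (SE 0.33, unadjusted p = 0.00327, edgeR adjusted p = 0.0602), neither past the threshold. With DESeq2, and with no low-count filter, Cxcr3 passed in both knockout contrasts. Of the 10 genes of interferon gamma signalling, 9 rose with host in wild type (90.0%, where 15.3% of all genes were higher). In knockout 8 rose (80.0%, where 15.7% of all genes were higher), and none fell in either. With edgeR none of the 10 passed in a knockout contrast, and 1 in each host had an unadjusted p under 0.05. With DESeq2 Ifng passed in Balb/c, where its edgeR value was 1.62 (SE 0.43, unadjusted p = 0.00905, edgeR adjusted p = 0.0763).

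**Figure D5:**
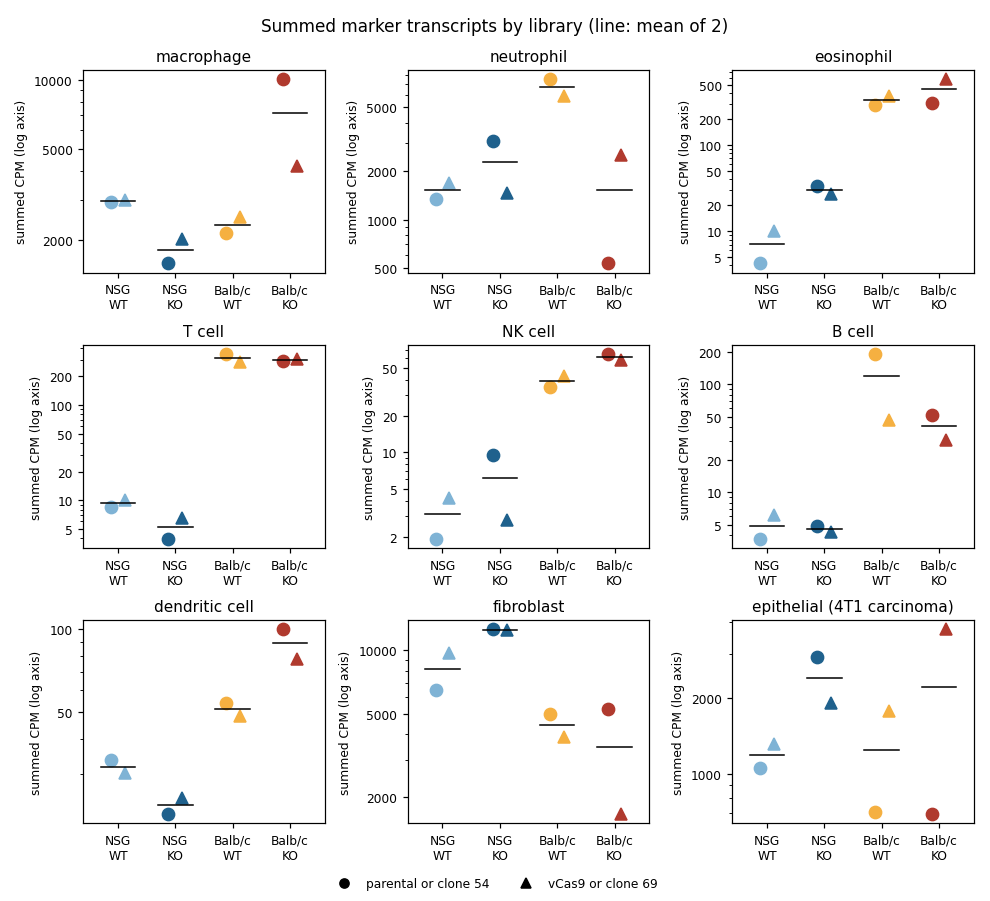
Each panel gives the summed CPM of a marker list (log axis, ranges differ) in the 8 libraries, by group on the horizontal axis, with circles for parental or clone 54, triangles for vCas9 or clone 69 and a line at the mean of 2. T cell sums are 3.96 to 10 CPM in NSG and 281 to 343 CPM in Balb/c, and the clone 54 tumor of the Balb/c host has the highest macrophage (10060 CPM) and the lowest neutrophil (532 CPM) sum.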

How the data were processed

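RNA-seq was measured in 8 tumor libraries, 1 per combination of host and 4T1 line. The deposited values are raw read counts per Ensembl gene, 1 table per library, which the authors did not normalize as far as the values show. The tools cutadapt 1.13, STAR, HTSeq 0.6.1p1 and DESeq2 and the builds mm10 and hg19 are named per the submitters' processing notes, without their roles; the strand setting, the treatment of reads with several matches and the annotation are not given in the sources used here. Of 25006 identifiers, 24942 had a symbol, and positions and transcript lengths came from GENCODE M21 (GRCm38).

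Tests used edgeR 4.0.16 in R 4.3.3 (TMM, filterByExpr, quasi-likelihood F test, 4 group means over all 8 libraries), with Benjamini-Hochberg adjustment over 15310 genes and a threshold of 0.05. The biological coefficient of variation was 0.244 with 4 residual degrees of freedom, and a standard error is the log2 fold change divided by the root of F. CPM uses TMM-scaled totals. Per-library values are given for ligands past the threshold in any comparison or averaging 10 CPM or more in a group. Tests are given for pairs of ligand and comparison past the threshold and, for the knockout contrasts and the host difference, also for those with an unadjusted p under 0.05. A group with 0 counts is held at 3 counts per library. A ligand outside that rule is given by its range, except that Ppbp has its knockout tests and Cxcl2 an unadjusted p named after it was seen; receptor and interferon genes were named for the ligands they belong to, after their values were seen. Alternatives were RLE size factors, total-count scaling, no filter on low counts, DESeq2 1.42.0, leaving out each library, and the line as a replicate block. The lines pair the hosts because each line was grown in both; the deviations of a line from its group means correlated between hosts at 0.087 for the wild-type lines and -0.353 for the knockout clones over 15310 genes. The fits were tested on simulated data with few changed genes, for the host contrast in wild type and both knockout contrasts. They recovered most of the large changes but almost none of the small ones, so a gene that did not pass is not shown to be unchanged. In the host contrasts far more genes passed than were simulated as changed, so that recovery does not carry over to them. The host contrast in knockout and the host difference were not simulated. In a fit without 1 library, the lone library of a group is assumed to vary like the other groups. The members, the marker and pathway lists and the comparisons were chosen with earlier results of these data known, and the lists come from general knowledge of cell types. Values of some single genes of the receptor, marker and pathway lists are not reported here.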

Additional observations from a re-analysis of the deposited data

How the results depend on the processing

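With 2 libraries of different lines per group, most knockout differences depended on the processing, and the cause was not tested. Ligands past the threshold in the NSG knockout contrast numbered 1 with edgeR, 3 with no low-count filter and 7 with DESeq2, in Balb/c 0, 9 and 9, and in the host difference 0, 9 and 9. Over all genes those numbers were 2, 133 and 340 in NSG, 27, 1774 and 2208 in Balb/c (94 with RLE size factors), and 0, 674 and 974 for the host difference. Leaving out 1 library gave 4 to 18 ligands for the host contrast in wild type, 13 to 21 in knockout, 0 for the knockout contrast in NSG, 0 to 10 in Balb/c and 0 to 11 for the host difference; over all genes the ranges were 858 to 6361, 2461 to 4640, 0 to 1, 0 to 3886 and 0 to 2370. With the line as a replicate block, 8 of 11 and 17 of 21 ligands kept their host call, 2073 of all genes passed in wild type (4825 without the block) and 2878 in knockout (4757), and no ligand passed in the host difference; no other host call of a ligand changed under the block. Pairing the clones crosswise, chosen after seeing the data because their correlation was below -0.1, gave 16, 24 and 4 ligands and 5733, 5436 and 307 genes for the 2 host contrasts and the host difference. None of the ligand fold changes tested in the report reversed in the alternatives checked for it. The crosswise pairing and fits that gave a ligand no adjusted p were not checked for reversals. At this depth 3 counts are 0.159 to 0.321 CPM, which limits Ccl1, Ccl19, Ccl20, Ccl21a, Ccl27a, Ccl28, Cxcl17 and Xcl1.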
